A study of Mus musculus with 8 samples.

Results

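In ventricles of mouse embryos with a cardiomyocyte-specific knockout of Pkn2 (cKO), 81 of 12899 expressed genes were lower in every cKO library than in any control library and had a log2 ratio of mean cKO to mean control level of at most −0.4. They were chosen from these same libraries by that pattern, after 4 more genes that met it (Pkn2, Hey2, H2-Q2 and H2-Q4) were left out by name. Among them were genes of heart muscle and of its signalling: Tnni3k (a kinase largely restricted to heart muscle), Casq2 (the calcium-storage protein of the cardiac sarcoplasmic reticulum), Hand1 (a transcription factor of the developing left ventricle), Bmp7 and Wnt5a (secreted signals) and Vcam1, Alcam and Npnt (cell surface and matrix proteins). Lists of 8 cardiomyocyte markers and 42 sarcomere genes held 0 of the 81. Over other listed genes of calcium handling and ion channels the median log2 fold change was 0.01. It was −0.02 over other FGF, Wnt and BMP genes, −0.07 over other cardiac transcription factors and 0.18 over genes of extracellular matrix and its proteases. Most of the 81 differences were small, with a median cKO level of 70.9% of the control level. Vnn1, a pantetheinase, stood at 38.2% of control and Sox3, a transcription factor, at 37.3%.

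PKN2 is a serine/threonine kinase of the protein kinase C superfamily with roles in the actin cytoskeleton, cell adhesion and cell division. At mid-gestation the mouse ventricle is a thin-walled chamber in which cardiomyocytes divide, the wall thickens and trabeculae form inside it. The chamber also holds endocardial cells, cushion cells and the first epicardial cells, and signals of the BMP, FGF and Wnt families pass between these layers.

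Poly(A) RNA from ventricular tissue was sequenced at embryonic day 10.5, in 4 cKO and 4 control libraries, each from a separate biological replicate. All embryos were homozygous for a floxed Pkn2 allele (Pkn2 fl/fl) on a C57BL/6N background. The cKO embryos also carried the XMLC2-Cre transgene, which is active in cardiomyocytes from early heart development. The controls were littermates without Cre, and no embryo had any other treatment. Since every cKO embryo and no control embryo carried Cre, an effect of the transgene and one of Pkn2 loss cannot be told apart. In RNA from whole tissue, fewer cells of a type and less RNA per cell cannot be told apart either.

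Pkn2 itself, the gene named as deleted by the labels, is given first. Gene identifiers and positions come from the deposited TPM table and are those of GRCm38. It stood at 133, 141, 152 and 149 CPM (a gene's counts as a share of its library's total, on a fixed scale) in controls 1 to 4 and at 82.9, 78.0, 80.8 and 84.0 CPM in cKO 1 to 4. The cKO mean was 56.7% of the control mean and the groups did not overlap, so no library went against its label. Libraries held 47559845 to 56660938 counts. All 8 had the pattern of male embryos, with Xist between 0.0780 and 2.24 CPM and the Y-linked Ddx3y between 47.1 and 60.7 CPM. The 8 cardiomyocyte markers summed to 20637 to 23258 CPM in controls and 21669 to 23767 CPM in cKO, so the tissue held the muscle RNA that its label names.

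The rule for the 81 genes was as follows. A gene entered if its mean over the 8 libraries was at least 2 CPM, if its highest cKO library was below its lowest control library, and if the log2 ratio of the mean cKO CPM to the mean control CPM was at most −0.4. Of 55291 gene symbols, 12899 reached the mean level, 655 of those did not overlap and were lower in cKO (5.08%), and 85 also met the ratio (0.659%). Leaving out Pkn2, Hey2 and the genes H2-Q2 and H2-Q4 by name gave the 81 (0.628% of the 12899). In the opposite direction, 629 genes did not overlap and were higher in cKO (4.88%), and 194 of these also had a log2 ratio of at least 0.4. Every difference between cKO and control given for the 81 is therefore a description and carries no test.

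**Figure D1:**
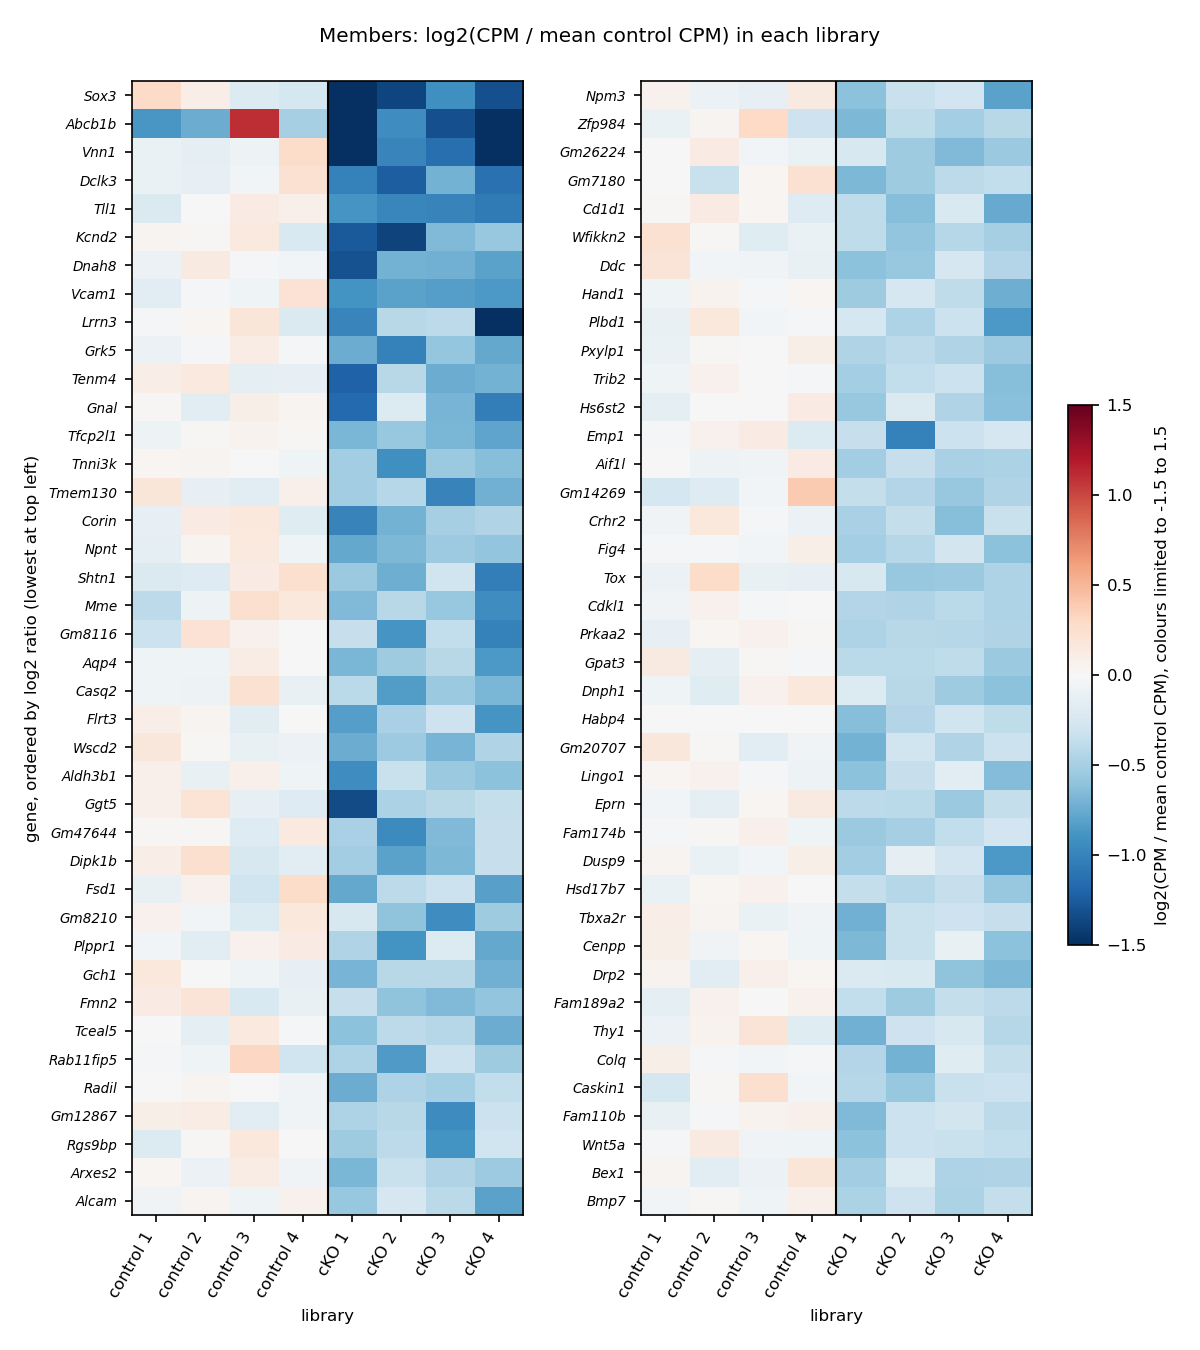
Each row is 1 of 80 of the 81 genes and each column 1 library, and the colour gives log2 of the CPM over the mean control CPM, limited to −1.5 to 1.5, with controls left and cKO right of the line in each panel. All cKO cells are blue by the rule, and the red cell of Abcb1b in control 3 marks its value of 9.0 CPM.

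The secreted signals and the enzymes that process peptides and matrix outside the cell made up 6 of the genes. Bmp7 (ENSMUSG00000008999, chr2:172868012-172940321), a ligand of the transforming growth factor beta superfamily, was read most often of the 81 (a number that also grows with gene length), at 201, 210.3, 198 and 219 CPM in controls 1 to 4 and 149, 167, 149.5 and 161 CPM in cKO 1 to 4. The means were 207 ± 9.29 (control) and 157 ± 8.99 (cKO) CPM (SD, n = 4 each), and the lowest control stood 18.4% above the highest cKO library. Wnt5a (ENSMUSG00000021994, chr14:28504750-28527448), a Wnt ligand that mostly signals without beta-catenin, stood at 94.5, 106, 92.6 and 91.9 CPM in controls and 62.7, 77.3, 76.6 and 74.3 CPM in cKO, with cKO 1 below the other cKO libraries. Its log2 ratio of −0.40 was nearly that of Bmp7 (−0.40), close to the limit of the rule. Tll1, a tolloid-like metalloprotease that is needed for septation of the mouse heart, had the lowest ratio of the group at −0.98. It was measured at 3.87, 4.49, 4.89 and 4.74 CPM in controls and 2.44, 2.28, 2.25 and 2.15 CPM in cKO, and its 4 cKO libraries lay close together. The other members were Corin, the protease that activates atrial natriuretic peptide (−0.65), Mme, the peptidase neprilysin, which degrades natriuretic peptides (−0.63), and Wfikkn2, a secreted binder of myostatin (−0.47). Mme had the narrowest gap of the 81, with 26.4, 32.9, 41 and 38.6 CPM in controls and 22.0, 26.0, 23.5 and 18.2 CPM in cKO, where control 1 nearly met cKO 2.

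Genes of receptors and G protein signalling numbered 6 as well. Grk5, a kinase that desensitises activated G protein-coupled receptors and is abundant in heart, was measured at 41.6, 43.6, 47.5 and 43.4 CPM in controls and 26.4, 21.9, 29.5 and 25.8 CPM in cKO, means of 44.0 ± 2.47 (control) and 25.9 ± 3.11 (cKO) CPM (SD, n = 4 each). Its cKO mean was 58.8% of control, and cKO 2 was the lowest library. Gnal, a stimulatory G protein alpha subunit, stood at 4.37, 3.86, 4.57 and 4.41 CPM in controls and 1.92, 3.72, 2.65 and 2.10 CPM in cKO, so that cKO 2 came within reach of the lowest control while cKO 1 was far below. The receptors given here were Crhr2, which binds urocortins (−0.45), and Tbxa2r, the thromboxane receptor (−0.42), and Rgs9bp, a membrane anchor for a regulator of G protein signalling, had a log2 ratio of −0.51.

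Cell surface, adhesion and matrix genes formed a group of 11. Vcam1 (ENSMUSG00000027962, chr3:116109949-116129688), the immunoglobulin-family ligand of integrins that the myocardium presents to the epicardium, had the widest gap between groups among members above 20 CPM. It stood at 85.1, 93.0, 90.7 and 110.1 CPM in controls and 50.7, 54.4, 53.5 and 52.3 CPM in cKO, means of 94.7 ± 10.8 (control) and 52.7 ± 1.60 (cKO) CPM (SD, n = 4 each). The cKO values spanned a narrow range and the lowest control was 56.3% above the highest of them. Alcam, an adhesion molecule of early cardiomyocytes, stood at 181, 192, 179 and 196 CPM in controls and 126, 157, 141 and 107 CPM in cKO. Its cKO libraries were spread, with cKO 4 lowest and cKO 2 highest. Npnt, nephronectin, a matrix ligand of integrins, was measured at 45.8, 51.6, 55.3 and 47.8 CPM in controls and 29.3, 31.4, 34.5 and 33.2 CPM in cKO, with little spread in cKO. Flrt3, a leucine-rich repeat protein of cell adhesion and FGF signalling, had a log2 ratio of −0.61, and Tenm4, a teneurin, one of −0.74. Tenm4 stood at 46.6, 48, 39.3 and 40.0 CPM in controls and 18.8, 32.7, 26.0 and 26.5 CPM in cKO, with cKO 1 lowest. The remaining members were Lrrn3 (−0.79), Emp1 (−0.46), Lingo1 (−0.43), Drp2, a dystrophin relative (−0.41), Thy1 (−0.41) and Colq, the collagen tail of acetylcholinesterase (−0.41). Lrrn3 varied most within cKO among the 11, at 3.23, 4.80, 4.88 and 1.90 CPM in cKO 1 to 4 beside 6.31, 6.55, 7.27 and 5.52 CPM in controls.

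The 250 bases before the start of Npnt and Alcam are shown because these are GC-rich, unlike those of the heart muscle genes Tnni3k and Casq2 given further on. They are RefSeq sequences on GRCm38.p6, minus strand, chr3:132950292-132950541 for Npnt and chr16:52453082-52453331 for Alcam, written in the direction of transcription. The Alcam start in RefSeq lies 993 bases from the gene start in the files. GC content is 74.0% for Npnt and 69.2% for Alcam. Capitals mark matches on either strand to short motifs, here GGGCGG (the GC box) in both, AGGTCA (a nuclear receptor half-site) in Npnt and CCAAT in Alcam.
Npnt: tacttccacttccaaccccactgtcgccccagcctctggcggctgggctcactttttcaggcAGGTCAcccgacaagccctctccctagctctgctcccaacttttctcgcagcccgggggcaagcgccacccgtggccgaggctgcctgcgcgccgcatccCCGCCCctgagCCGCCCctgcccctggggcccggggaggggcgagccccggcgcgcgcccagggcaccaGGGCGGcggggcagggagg
Alcam: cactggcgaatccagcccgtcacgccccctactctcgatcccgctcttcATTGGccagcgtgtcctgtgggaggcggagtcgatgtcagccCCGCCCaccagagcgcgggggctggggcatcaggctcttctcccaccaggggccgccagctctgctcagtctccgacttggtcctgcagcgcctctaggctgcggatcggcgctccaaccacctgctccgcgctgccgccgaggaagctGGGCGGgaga

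Kinases, pseudokinases and phosphatases numbered 8. Prkaa2 (ENSMUSG00000028518, chr4:105029874-105109890), a catalytic subunit of the energy sensor AMP-activated protein kinase, varied little within cKO. It stood at 183, 204, 208 and 202 CPM in controls and 144, 149.7, 148 and 146 CPM in cKO, and the SD of the cKO libraries was 2.28 CPM around a mean of 147 CPM (n = 4). Cdkl1, a cyclin-dependent kinase-like gene, was as tight, at 12.2, 13.2, 12.5 and 12.7 CPM in controls and 9.29, 9.25, 9.50 and 9.15 CPM in cKO. Tnni3k (ENSMUSG00000040086, chr3:154786299-155055407) was measured at 30.9, 31.1, 30.3 and 28.9 CPM in controls and 21.1, 16, 20.6 and 19.5 CPM in cKO, means of 30.3 ± 0.986 (control) and 19.3 ± 2.32 (cKO) CPM (SD, n = 4 each), with cKO 2 lowest. Dclk3, a doublecortin-like kinase, had the lowest ratio of the group (−1.01), at 6.46, 6.36, 6.72 and 8.06 CPM in controls and 3.41, 2.92, 4.23 and 3.17 CPM in cKO. The pseudokinase Trib2 had a log2 ratio of −0.46, the phosphoinositide phosphatase Fig4 one of −0.45, the MAP kinase phosphatase Dusp9 one of −0.42 and the kinase-like Dipk1b one of −0.57. Trib2 stood at 112, 121, 117 and 115 CPM in controls and 81.5, 89.9, 92.8 and 74.5 CPM in cKO. Fig4 was measured at 76.1, 75.6, 75.5 and 82.6 CPM in controls and 54.4, 57.8, 64.2 and 50.4 CPM in cKO. Dusp9 was the least even of them, with 23.2, 30.4, 27.3 and 18.4 CPM in cKO 1 to 4 beside 34.2, 31.2, 32.4 and 35.5 CPM in controls.

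Channels, transporters and calcium storage were represented by 4 genes, with a median log2 ratio of −0.77. Casq2 (ENSMUSG00000027861, chr3:102086415-102146514) stood at 16.3, 16.1, 20 and 15.8 CPM in controls and 12.9, 9.57, 11.6 and 10.6 CPM in cKO, means of 17.0 ± 1.98 (control) and 11.2 ± 1.42 (cKO) CPM (SD, n = 4 each), and control 3 lay above the other controls. Kcnd2, a subunit of the voltage-gated potassium channels that carry the transient outward current, was low throughout, at 3.31, 3.27, 3.58 and 2.75 CPM in controls and 1.35, 1.23, 2.04 and 2.17 CPM in cKO. Aqp4, a water channel, was measured at 20.4, 20.5, 23.2 and 21.5 CPM in controls and 13.3, 14.8, 16 and 11.8 CPM in cKO. Abcb1b, a drug efflux transporter, had a log2 ratio of −1.40, or −0.70 without control 3. Its controls stood at 2.28, 2.5, 9.0 and 2.97 CPM and its cKO libraries at 1.41, 2.19, 1.68 and 1.07 CPM, and the lowest control was 3.81% above the highest cKO library.

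Tnni3k and Casq2 are the members most closely tied to heart muscle, and their promoters are shown for that reason. Both come from chromosome 3 of GRCm38.p6 (RefSeq), chr3:155055408-155055657 on the minus strand for Tnni3k and chr3:102086165-102086414 on the plus strand for Casq2. Their GC contents are 47.2% and 41.6%. Capitals mark the CCAAT box, the cyclic AMP response core TGACGT and GGAATG (a core that TEAD factors bind) in Tnni3k, and TAAAAAT, part of the site of MEF2 factors, in Casq2. In the longer window, from 250 bases before to 50 after the start, Tnni3k holds TAAAAAT as well.
Tnni3k: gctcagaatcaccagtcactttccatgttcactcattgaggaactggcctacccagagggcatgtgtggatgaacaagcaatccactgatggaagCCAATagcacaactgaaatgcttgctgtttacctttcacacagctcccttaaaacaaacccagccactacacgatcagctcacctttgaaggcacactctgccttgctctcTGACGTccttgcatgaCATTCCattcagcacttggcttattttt
Casq2: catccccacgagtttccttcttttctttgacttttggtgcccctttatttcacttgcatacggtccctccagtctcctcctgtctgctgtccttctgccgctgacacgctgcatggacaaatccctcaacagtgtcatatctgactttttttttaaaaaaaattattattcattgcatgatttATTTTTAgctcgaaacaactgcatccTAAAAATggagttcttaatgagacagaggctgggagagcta

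Enzymes of metabolism formed a group of 11. Vnn1 (ENSMUSG00000037440, chr10:23894688-23905343), the pantetheinase that splits pantetheine into pantothenate and cysteamine, had the widest gap of all 81. It stood at 19.6, 18.9, 19.9 and 25.2 CPM in controls and 4.99, 10.5, 9.50 and 6.87 CPM in cKO, means of 20.9 ± 2.92 (control) and 7.97 ± 2.52 (cKO) CPM (SD, n = 4 each). The cKO mean was 38.2% of control and the lowest control was 79.6% above the highest cKO library, with cKO 1 and 4 lower than cKO 2 and 3. Hs6st2, which sulfates heparan sulfate, was measured at 67.7, 75.2, 74.4 and 81.3 CPM in controls and 50.4, 64.4, 54.5 and 48.2 CPM in cKO, and cKO 2 approached the lowest control. Hsd17b7, an enzyme of cholesterol synthesis, stood at 38.2, 41.5, 42.7 and 40.9 CPM in controls and 31.8, 30.3, 32.1 and 27.5 CPM in cKO. The others were Ddc, aromatic amino acid decarboxylase (−0.46), Gch1, the first enzyme of tetrahydrobiopterin synthesis (−0.55), Pxylp1, a xylose phosphatase of glycosaminoglycan synthesis (−0.46), Gpat3, an acyltransferase of glycerolipid synthesis (−0.44), Ggt5, a gamma-glutamyltransferase (−0.60), Aldh3b1, an aldehyde dehydrogenase (−0.60), Plbd1 (−0.46) and Dnph1, a nucleotide hydrolase (−0.44).

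Transcription factors and other nuclear proteins numbered 8. Hand1 (ENSMUSG00000037335, chr11:57828705-57832818) stood at 92.6, 100.2, 94.6 and 98.9 CPM in controls and 66.9, 81.1, 74.4 and 58.1 CPM in cKO, means of 96.6 ± 3.56 (control) and 70.1 ± 9.90 (cKO) CPM (SD, n = 4 each). The controls were within a narrow range, while cKO 4 was lowest and cKO 2 highest among cKO. Sox3, a transcription factor of neural progenitors, had the lowest log2 ratio of all (−1.42) at a low level, 6.55, 5.75, 4.64 and 4.47 CPM in controls and 0.931, 2.07, 2.84 and 2.15 CPM in cKO. The other 4 genes tested of the list of neural and neural crest markers that holds Sox3 had a median log2 fold change of 0.42, or 0.22 without cKO 2, and the list with Sox3 summed to 25 to 29.2 CPM in controls and 26.1 to 41.7 CPM in cKO. Tfcp2l1, of the grainyhead family, was tight in both groups, with 7.46, 7.93, 8.14 and 7.94 CPM in controls and 4.89, 5.33, 4.88 and 4.56 CPM in cKO. Habp4, an RNA-binding protein, had very even controls, at 61.1, 61.9, 61.6 and 61.4 CPM, and stood at 39.4, 45.2, 50.1 and 47.3 CPM in cKO. Npm3, of the nucleoplasmin family of histone chaperones (−0.49), the zinc finger gene Zfp984 (−0.49), the HMG-box gene Tox (−0.45) and the centromere gene Cenpp (−0.42) completed the group.

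Cytoskeleton and vesicle traffic accounted for 9 genes. Dnah8, an axonemal dynein heavy chain, stood at 11.6, 13.6, 12.2 and 12 CPM in controls and 5.01, 7.54, 7.51 and 7.08 CPM in cKO, with cKO 1 lowest. Aif1l, an actin-binding protein, was measured at 98.3, 93.8, 95.4 and 108 CPM in controls and 69.1, 77.7, 70.6 and 71.1 CPM in cKO. Radil, an effector of the GTPase Rap in cell adhesion, had a log2 ratio of −0.51, and Rab11fip5, an effector of recycling endosomes, one of −0.53. The remaining members were the actin nucleator Fmn2 (−0.54), Shtn1 (−0.63), the microtubule-associated Fsd1 (−0.56), the scaffold gene Caskin1 (−0.41) and the centrosome-associated Fam110b (−0.40).

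The other 9 protein-coding members have less settled roles. Bex1 was measured at 107, 93.7, 97.6 and 118 CPM in controls and 72.6, 90.7, 75.4 and 76.3 CPM in cKO, with cKO 2 near the lowest control, and its X-linked neighbour Tceal5 at 11.1, 10.1, 12.2 and 10.9 CPM in controls and 7.25, 8.44, 8.24 and 6.58 CPM in cKO. Fam189a2 stood at 58.5, 67.1, 63.5 and 67.1 CPM in controls and 49.5, 44.1, 50.1 and 48.6 CPM in cKO. Tmem130, a transmembrane protein gene at one of the lowest levels, was at 2.96, 2.39, 2.35 and 2.75 CPM in controls and 1.82, 1.94, 1.30 and 1.58 CPM in cKO. Log2 ratios were −0.50 for Arxes2, −0.65 for Tmem130, −0.61 for Wscd2, −0.55 for Plppr1, −0.49 for Cd1d1, a presenter of lipid antigens, and −0.43 for Fam174b. The last 9 of the 81 were pseudogenes, long non-coding RNAs or predicted genes, with log2 ratios from −0.63 (Gm8116) to −0.43 (Eprn) and mean levels of 2.24 to 10.4 CPM. They were Gm8116, Gm47644, Gm8210, Gm12867, Gm26224, Gm7180, Gm14269, Gm20707 and Eprn.

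**Figure D2:**
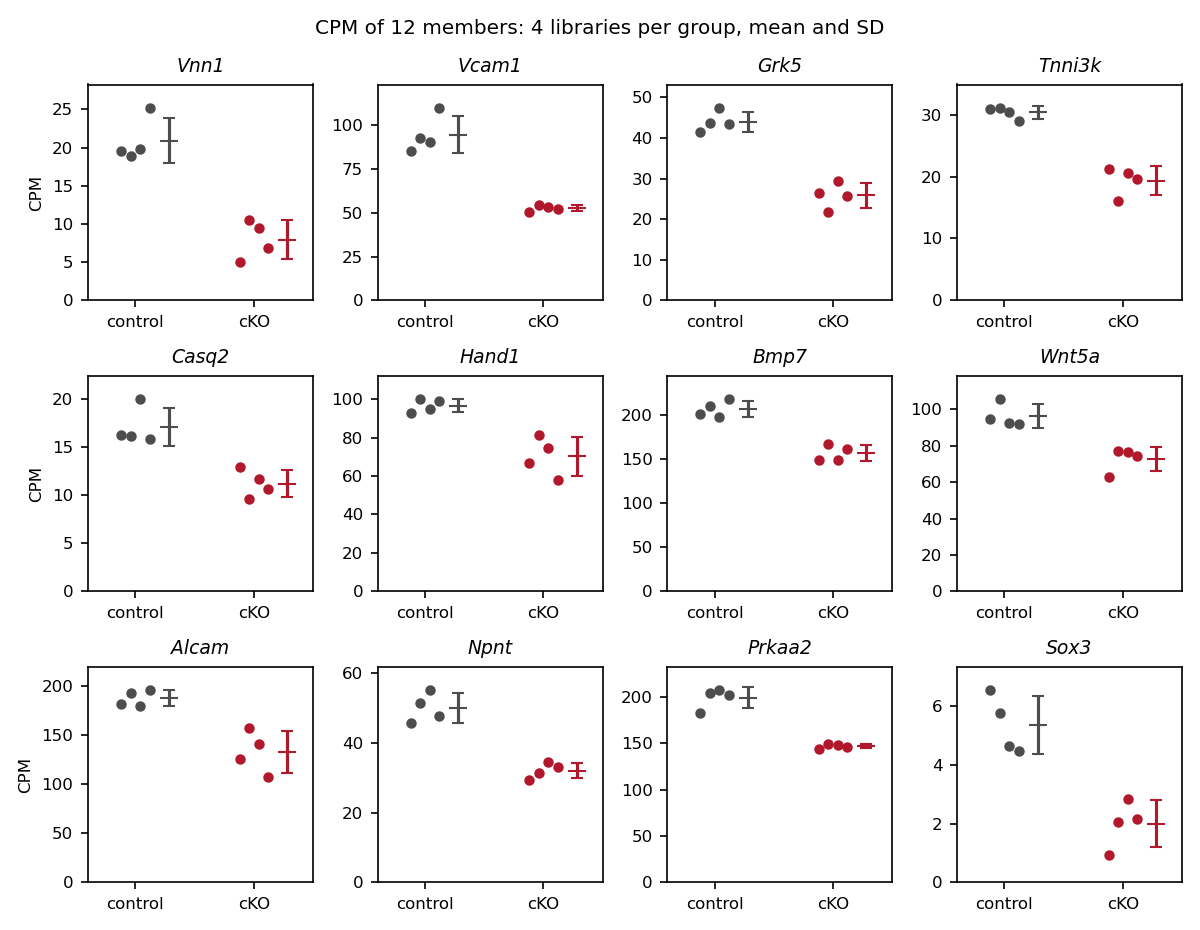
Each panel shows the CPM of 1 gene (vertical axis from 0), with a point for each of the 4 control and 4 cKO libraries and, to their right, the mean and SD. Groups are apart in every panel by the rule, and the panels differ in spread: Prkaa2 and Vcam1 are tight in cKO, Alcam and Hand1 are not.

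Several members belong to longer lists of pathway genes, and the genes of these lists that are not members were compared by edgeR's quasi-likelihood test over 26820 genes. A gene passed, or was called, at a Benjamini-Hochberg adjusted p (false discovery rate) of at most 0.05. That test called 0.858% of all genes, 0.343% lower and 0.515% higher in cKO, and the median log2 fold change over all genes tested was −0.00. Beside Wnt5a and Bmp7, 51 FGF, Wnt and BMP genes were tested, of which 27 were below 0 with a median of −0.02. Sfrp1, a secreted Wnt inhibitor, passed as lower and 0 passed as higher, and Sfrp1 passed in 2 of the 8 fits with 1 library left out, those without cKO 3 and without cKO 4. Beside Casq2 and Kcnd2, 36 genes of calcium handling and ion channels were tested, of which 17 were below 0 and 0 passed. At an unadjusted p under 0.05 were 14, of which 5 were lower in cKO and the rest higher. In that list DESeq2 called 3 lower and 5 higher, and voom called 1 higher. The fit without cKO 3 called 1 lower and 4 higher. Beside Hand1, 10 compact myocardium genes were tested, of which 7 were below 0 with a median of −0.14. Hey2, a transcription factor of the compact wall that met the pattern of the 81 and was left out by name, passed as lower, also with each library left out. Of the 21 cardiac transcription factors tested other than Hand1, 16 were below 0 and 0 passed, with 7 at an unadjusted p under 0.05, while Nkx2-5 and Irx4 passed by DESeq2 and without cKO 3. Beside Vnn1, 39 genes of coenzyme A, fatty acid and ketone metabolism were tested, of which 27 were below 0 and 0 passed by edgeR, 2 by DESeq2 and 0 by voom, with 7 at an unadjusted p under 0.05. Beside Hsd17b7, 20 genes of cholesterol synthesis were tested, of which 17 were below 0, with a median of −0.10, and 0 passed by edgeR, 1 by DESeq2 and 0 by voom, with 5 at an unadjusted p under 0.05. Neither the sarcomere nor the trabecular list holds a member. Of 42 sarcomere genes Xirp2 and Nrap passed as higher and 0 as lower, with 1 to 6 passing when 1 library was left out (6 without cKO 3). Of 13 trabecular genes Nrg1, the ligand neuregulin 1, passed as higher, and 0 passed without any 1 of control 1, control 3, control 4 and cKO 1. The list of extracellular matrix and its proteases also holds 0 members, with a median of 0.18 over 43 genes tested. Of these 5 passed as higher and 2 as lower, and 0 to 15 passed when 1 library was left out. By the same test 42 of the 81 members were called lower, where 0.659% of the 12899 genes with a mean of at least 2 CPM were. Since the rule used the same contrast, that count says nothing on the members.

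Differences were small for most members, and levels spanned a wide range. Log2 ratios ran from −1.42 to −0.40 with a median of −0.50. At least 2-fold lower were 4 genes (Sox3, Abcb1b, Vnn1 and Dclk3), 23 were lower by 1.5-fold to 2-fold, and 54 by less than 1.5-fold. Mean levels ran from 2.03 to 182 CPM with a median of 9.16 CPM, against 31.2 CPM for all 12899 genes: 27 members were under 5 CPM and 4 (Bmp7, Prkaa2, Alcam and Trib2) at 100 CPM or more. The lowest total over 8 libraries was 839 counts and the lowest count in a library was 47 (Sox3 in cKO 1). On the authors' length-scaled TPM, which allow genes to be compared with each other, control means ran from 0.809 for Fmn2 to 241 for Bex1, with a median of 10.1. After Bex1 came Npm3 at 144 TPM, Bmp7 at 98.8 TPM and Hand1 at 88.8 TPM, while Vcam1 stood at 51.5, Casq2 at 11.9 and Sox3 at 4.35 TPM.

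**Figure D3:**
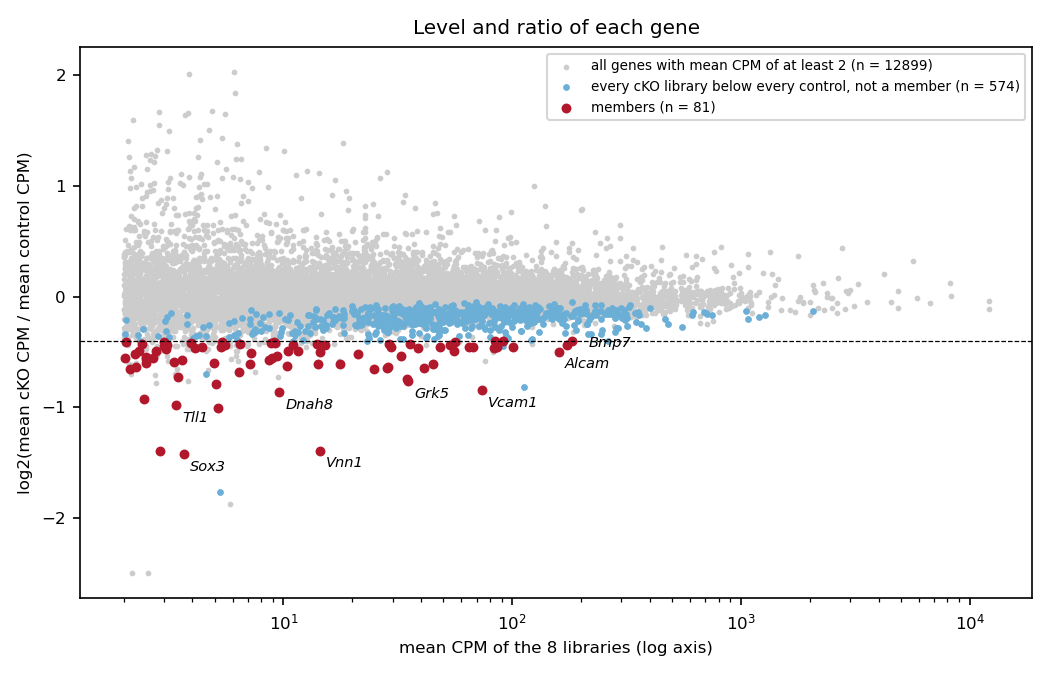
Points are the 12899 genes with a mean of at least 2 CPM, with the mean CPM of the 8 libraries on a log axis and log2 of mean cKO over mean control CPM on the other, which is drawn to −2.5 and 2.5. The 81 members (red) lie under the dashed limit at −0.4, and lower ratios are found at lower levels, with Vnn1 and Vcam1 apart from the rest of their level. The 574 blue points are genes without overlap that are not members.

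How far apart the groups were differed between members. The lowest control stood above the highest cKO library by a median of 14.5%, by more than 25% for 15 members and by less than 5% for 18. The widest gaps belonged to Vnn1 (79.6%), Tll1 (58.8%), Sox3 (57.4%), Vcam1 (56.3%), Dnah8 (54.2%) and Dclk3 (50.4%). The coefficient of variation among 4 libraries had a median of 8.47% in controls and 13.1% in cKO, and it was lower in controls for 59 of the 81. On TPM all 81 were lower in cKO by the mean, 71 without overlap, and the median log2 ratio was −0.47. A log2 ratio of at most −0.4 was met on that scale by 68 of them, but not by Bmp7 (−0.38) or Wnt5a (−0.37). The 10 whose TPM overlapped were Abcb1b, Tenm4, Shtn1, Mme, Gm8116, Ggt5, Gm47644, Dipk1b, Gm8210 and Caskin1. Gm8210 was nearly level on that scale, with a log2 ratio of −0.04.

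The cKO libraries were not alike. The median over the members of log2 CPM relative to the control mean was −0.56 in cKO 1, −0.45 in cKO 2, −0.45 in cKO 3 and −0.59 in cKO 4, while the 4 controls lay between −0.03 and 0.02. Of the 81 genes, 28 were lowest in cKO 1 and 29 in cKO 4, and 15 and 9 in cKO 2 and cKO 3. In 29 genes both cKO 1 and cKO 4 were below both others, and in 6 the reverse held. Together the 81 genes took 0.243% to 0.256% of the counts in controls and 0.167% to 0.186% in cKO. Among the lists of markers of other cells, only the endothelial and endocardial one had sums that did not overlap between the groups. Cushion mesenchyme markers summed to 254 to 333 CPM in controls and 303 to 378 CPM in cKO. Liver and yolk sac markers summed to 52.8, 22.7, 22.5 and 18.8 CPM in controls 1 to 4 and 18.2 to 25.2 CPM in cKO. Of the 10 tested, 8 were below 0, with a median log2 fold change of −1.29, or −0.57 without control 1. None passed by edgeR or voom and 2 passed as lower by DESeq2, with 6 at an unadjusted edgeR p under 0.05, all lower. Of these markers 3 had a mean under 1 CPM. Erythroid markers summed to 1059 to 3175 CPM in controls and to 2450, 954, 1958 and 3334 CPM in cKO 1 to 4. Among cKO libraries the erythroid sum was thus highest in cKO 1 and cKO 4. The same held for the macrophage markers and for the list of extracellular matrix and its proteases. The 9 endothelial and endocardial markers summed to 1180 to 1378 CPM in controls and to 1833, 1536, 1526 and 1875 CPM in cKO 1 to 4, so that the sum was highest in the libraries in which the members were lowest. Of these markers 6 of 9 passed the edgeR test as higher in cKO, 0 as lower, and 0 had a mean under 1 CPM. The number of calls changed with the libraries and the method: 0 of the 9 passed without any 1 of controls 1 to 4 or without cKO 1. Without cKO 4 the number was 2, without cKO 2 or without cKO 3 it was 6, by DESeq2 8 and by voom 3. All 9 had a log2 fold change above 0 in each of these fits. With 1 library left out, 8 or 9 of the 9 had an unadjusted edgeR p under 0.05 in each fit. The 8 macrophage markers summed to 4.14 to 8.92 CPM in controls and to 34.1, 10.6, 7.93 and 19.0 CPM in cKO 1 to 4. C1qb and C1qc passed as higher, 3 of the 8 had a mean under 1 CPM, and 0 passed by voom or without control 3, control 4 or cKO 1, against 6 without cKO 3. Epicardial markers summed to 505 to 555 CPM in controls and to 405, 479, 503 and 608 CPM in cKO, with 0 of 10 passing by edgeR or voom, 2 by DESeq2 and 2 at an unadjusted p under 0.05. The part of these cells in the members' levels was not tested.

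**Figure D4:**
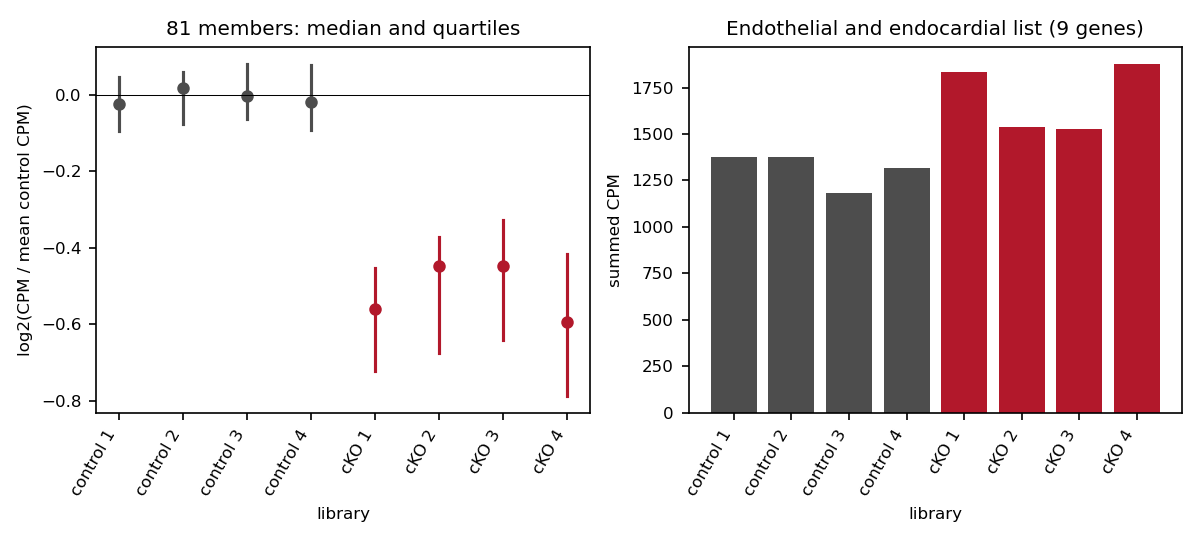
Left, the median (point) and quartiles (line) over the 81 genes of log2 CPM relative to the mean control CPM in each library. Right, the summed CPM of the 9 endothelial and endocardial markers in the same libraries, with the axis from 0. The cKO 1 and cKO 4 libraries have the lowest medians on the left and the highest sums on the right.

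Genes just inside and just outside each limit were much alike. At the ratio limit, Wnt5a, Bex1 and Bmp7 were inside with −0.40 each, and Epn3 (−0.399), Ddr1 (−0.398) and Rsph1 (−0.396) were outside. At the level limit, Plppr1 (2.03 CPM), Thy1 (2.06 CPM) and Tmem130 (2.14 CPM) were inside, and Tent5d (1.94 CPM), Vdr (1.90 CPM) and Lum (1.74 CPM) were outside. At the limit on overlap, the lowest control was 101.4% of the highest cKO library for Mme, 101.5% for Rab11fip5 and 101.8% for Fsd1, while Sfrp1 at 99.7% and Faim2 at 99.4% were left out by the rule.

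Members lay on the X chromosome and on every autosome but chromosome 15. The X chromosome held 7 members, 8.64% of the 81 against 3.52% of all genes at this level. Chromosome 3, which also holds Pkn2 (chr3:142790902-142882004 on GRCm38), held 6 members, 7.41% against 4.89%, at distances from 9.84 Mb (Npnt) to 79.4 Mb (Mme) from Pkn2. On the X chromosome 4 members followed each other within 1.81 Mb, from Drp2 over Arxes2 and Tceal5 to Bex1 (chrX:134404551-136215513, GRCm38), with Tceal5 and Bex1 10096 bases apart. Of the 20 other genes at this level in the segment, 14 had a log2 ratio below 0 (70%), against 57.2% of the 453 X-linked genes, and their median was −0.06 against −0.03. The median gene span was 35.5 kb in members and 22.2 kb in all genes at this level, and 22.2% and 13.1% spanned over 100 kb. These differences in position and span were not tested.

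The promoters of the neighbours Tceal5 and Bex1 are shown for comparison, from RefSeq on GRCm38.p6, both on the minus strand, at chrX:136203885-136204134 and chrX:136215514-136215763. Capitals mark the half-site AGGTCA, the cyclic AMP core TGACGT and the E-box CACGTG in Tceal5, and the TEAD core GGAATG and the GC box GGGCGG in Bex1. Both hold CACGTG in the longer window, from 250 bases before to 50 after the start, in which motifs are counted next.
Tceal5: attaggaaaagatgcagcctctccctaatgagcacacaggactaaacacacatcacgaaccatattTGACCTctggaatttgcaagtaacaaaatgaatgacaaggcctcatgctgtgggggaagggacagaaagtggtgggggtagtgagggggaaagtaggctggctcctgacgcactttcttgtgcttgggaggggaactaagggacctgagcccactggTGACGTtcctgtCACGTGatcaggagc
Bex1: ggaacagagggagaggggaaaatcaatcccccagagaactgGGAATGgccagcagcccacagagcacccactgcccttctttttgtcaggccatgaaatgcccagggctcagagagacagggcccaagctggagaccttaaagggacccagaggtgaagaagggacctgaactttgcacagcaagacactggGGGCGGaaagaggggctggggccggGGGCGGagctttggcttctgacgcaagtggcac

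A RefSeq promoter, 250 bases before and 50 after the start, was matched for 51 of the 81 members and for 9685 of the genes at this level. The motifs were sought by their exact letters on both strands, and no motif lies within another, although adjacent matches can share letters. TATAAA was found in 9.80% of member promoters and 6.74% of all, GGGCGG in 62.7% and 67.1%, and CCAAT in 35.3% and 39.0%. GGAATG occurred in 15.7% and 12%, AGATAA (the core that binds GATA factors) in 7.84% and 6.06%, and the MEF2 letters TAAAAAT in 3.92% and 3.02%. The core of TCF and LEF factors, CTTTGAT, was found in 1.96% and 2.38%, and the core of SOX factors, AACAAT, in 0 of 51 and 5.36%. TGACGT was in 13.7% and 12.2%, CACGTG in 11.8% and 10.5%, AGGTCA in 15.7% and 11.2%, and GCATGCG in 7.84% and 6.89%. CCGGAAG, a core of ETS factors, was in 2 of the 51 (3.92%) and in 19.1% of all. Median GC content was 61.0% in members and 61.3% in all. These are descriptions of letters in the window and were not tested.

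Counts of some members may include reads of other genes. The overlaps given here are between whole gene spans, introns included, and overlap of exons was not checked. The library kit does not mark strand, and 11 members overlap an expressed gene on the other strand, such as Dnah8 with Glo1, Flrt3 with Macrod2, Lrrn3 with Immp2l and Cenpp with Ippk. Overlap on the same strand was found for 5, among them Zfp984 and Gm20707 with each other, and Gm26224 with Gas5. Gnal overlaps Chmp1b and Mppe1, 1 on each strand. Gm47644 overlaps Cep85l and Pln, 1 on each strand, and Gm8210 overlaps Fhl2 on the other strand. The values of these genes are uncertain to that extent, as are those of the 4 pseudogenes, whose reads can be shared with their parent genes.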

How the data were processed

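Ventricular RNA of E10.5 mouse embryos was measured in 4 Pkn2 cKO and 4 control libraries. Unnormalised gene counts were deposited by the authors, beside a table of TPM with gene positions on GRCm38. The submitters' processing notes name FastQC, Trim Galore 0.6.7, HISAT2 2.2.1, StringTie 2.2.1, featureCounts, DESeq2 and the build GRCm39, and the strand setting of counting is not given in the sources used here. The labels give reads of another length than the series text. Libraries held 47559845 to 56660938 counts, and counting error weighs most on members with few counts. No deposited column of these tables was left unused.

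CPM were computed as counts over the column total. The 81 members followed the rule given in the report, and the members, lists and limits were chosen with earlier results of these data known, and the role groups after the members' values were seen. Named were members among the 15 lowest ratios, the 12 highest means, the 12 widest gaps, members of a pathway list and genes next to each limit. Others are named by role, some with values in each library, and results of 1 member and of 1 gene next to a limit are not reported here. Pathway lists were compared with edgeR 4.0.16 (quasi-likelihood test, TMM, condition as the design) in R 4.3.3 on the 26820 genes with at least 8 counts in total. On simulated data of 25954 genes, 200 were changed, all of them among genes with a mean of at least 2 CPM. There edgeR found 81.0% of 1.5-fold and 98.0% of 2-fold changes, and 7.25% of its calls were false. Alternatives used DESeq2 1.42.0 and limma 3.58.1 (voom). Promoters came from RefSeq tables of GRCm38.p6. The lower coordinate of the gene span lay within 1000 bases of that of RefSeq on GRCm38 for 73 members, out of 78 matched. For genes on the minus strand this coordinate is the end of the gene, so their starts were not compared here. Pairs of libraries of a group differed by far more than counting error, with a chi-square per degree of freedom of 12.0 to 39.1.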

Additional observations from a re-analysis of the deposited data

Results flagged for a closer look

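Within a group of 4 libraries, 1 library stood far from the other 3 in 10 of the 160 groups formed by 80 members and 2 conditions, by Dixon's criterion, which chance meets in about 1 of 20 groups. Abcb1b stood at 9.0 CPM in control 3, where the other controls were between 2.28 and 2.97 CPM. Vnn1 was at 25.2 CPM in control 4 (others 18.9 to 19.9 CPM), Casq2 at 20 CPM in control 3 (15.8 to 16.3 CPM) and Fig4 at 82.6 CPM in control 4 (75.5 to 76.1 CPM). Tox was at 4.22 CPM in control 2 (3.18 to 3.28 CPM) and Colq at 6.53 CPM in control 1 (5.97 to 6.02 CPM). In cKO, Ggt5 was at 2.36 CPM in cKO 1 (4.30 to 4.64 CPM), Tbxa2r at 6.36 CPM in cKO 1 (8.27 to 8.43 CPM), Emp1 at 17.0 CPM in cKO 2 (26.9 to 28.7 CPM) and Gpat3 at 4.36 CPM in cKO 4 (4.83 to 4.90 CPM).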

How the results depend on the processing

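The rule gave 94 genes with TMM-scaled library sizes and 88 with DESeq2 size factors, and each of these sets held all 81 members. On TPM it gave 66 genes, 48 of them members. It gave 251 genes with no filter on the mean, 27 at a limit of 1.5-fold and 651 at any ratio below 0, and 87 to 136 when 1 library was left out (136 without cKO 3). The edgeR test called 230 genes, DESeq2 867, edgeR without a filter 878, voom 168, and 67 to 744 were called when 1 library was left out (744 without cKO 3, 67 without control 1). Of the members 42 were called by edgeR, 67 by DESeq2, 41 by voom and 27 to 46 with 1 library left out (27 without control 1 and without cKO 1). In all 8 such fits 23 of the 42 were called. The rule chose the members on the same contrast, so these counts say nothing on the members. Of all genes with a mean of at least 2 CPM, the main edgeR fit called 0.659% lower in cKO. Same-numbered libraries did not deviate together, with correlations of −0.23, −0.02, 0.01 and −0.15. With so few libraries per group this cannot exclude pairs, and the labels do not say which libraries share a litter. The replicate block called 380 genes and 47 members. Among the log2 ratios of named members, Abcb1b moved most when 1 library was left out, from −1.40 to −0.70 without control 3. Calls within the gene lists, members included, moved by more than 1.5 times in 89 of 308 list and setting pairs. With 1 library left out, calls among list genes that are not members ran from 0 to 6 in the endothelial list and in the macrophage list and from 0 to 5 in the list of calcium handling. The causes were not tested. Depth limits the members under 5 CPM most.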
